A study of Homo sapiens with 6 samples.

Results

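The 10 genes described here, IKZF1, IKZF3, ZFP91, ZNF692, ZNF276, ZMYM2, WIZ, RNF166, RAB28 and DTWD1, encode proteins reported to be neosubstrates of lenalidomide and related drugs. They were chosen by name for those reports, with earlier results of these data known, the kinase gene CSNK1A1 was left aside, and all 10 were found among the 12760 genes of the expression table. A neosubstrate is a protein that a ubiquitin ligase does not normally bind but is led to by a small molecule. Lenalidomide sits in a pocket of cereblon, the substrate receptor of the CRL4 ubiquitin ligase, and the drug-bound surface then holds a hairpin loop of the neosubstrate, which is tagged with ubiquitin and destroyed by the proteasome. In myeloma cells the loss of Ikaros (IKZF1) and Aiolos (IKZF3) is the best known part of the drug's action. This control acts on the protein, whereas the data described here are of RNA.

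RNA-seq had been carried out on cultures of MM.1S, a human myeloma line that grows from malignant plasma cells. The LenR group (3 libraries) was selected by continuous lenalidomide, starting at 10 nM and raised 10-fold a month for 3 months. The WT group (3 libraries) had received the solvent dimethyl sulfoxide (DMSO) over the same time, and no other allele or agent is named for either group. The series title places the comparison in work on lysine lactylation in lenalidomide resistance. The sources used here do not give whether the drug was still in the medium when RNA was taken, so drug exposure and selection cannot be told apart. The replicates are called biological without a statement that each LenR culture was selected on its own, so p-values reflect the spread of these cultures alone. In RNA of whole cultures, a change in every cell and a change in some of the cells cannot be told apart.

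Expression was given as FPKM, fragments per kilobase of gene corrected for library size. The read numbers recovered from the values lay between 14500140 and 17387914 per library, with a median of 511 per gene and library. All 10 plasma cell markers looked at were detected, with summed levels of 4720 to 5660 FPKM in LenR and 4040 to 4650 FPKM in WT libraries, while 1 of 6 B cell markers was found. LenR and WT separated on the first principal component (58.1% of the variance). On the second (26.8%), LenR replicate 2 and WT replicate 3 stood apart from the other 4 libraries. Levels also shifted between libraries with the GC content of the genes. Genes above the upper quartile of GC content lay above their mean over the 6 libraries in LenR replicates 1 and 2 and in WT replicate 3, by medians of 0.10, 0.09 and 0.07 on the log2 scale, and below it in the other 3 libraries. WT replicates 1 and 2 were nearly alike, with a median chi-square of their reads 1.17 times that of counting noise alone, against 4.71 to 9.41 for every other pair within a group. They still differed by more than that noise and were kept as 2 samples.

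All 10 neosubstrate genes averaged 1 FPKM or more over the 6 libraries and were tested within a set of 11276 such genes, by limma on log2(FPKM + 1) with Benjamini-Hochberg adjustment and a threshold of 0.05. Fold changes are on that scale, which understates those of low genes. No neosubstrate gene passed as lower in LenR, and ZMYM2 just missed the threshold (-0.24, adjusted p = 0.0563 by limma). ZNF692 and DTWD1 passed as higher in LenR, at 1.33 and 1.37 times the WT mean on the FPKM scale. Those 2 of 10 stand beside 15.1% of all genes tested that passed, 8.57% higher and 6.57% lower in LenR. At an unadjusted p under 0.05, 4 of the 10 were higher and 1 was lower in LenR, against 28.7% of all genes in either direction. With voom, a limma method run on the reads, 3 of the 10 passed, ZMYM2 as the lower one, among 1756 of the 11276 genes. The values of the groups did not overlap for 5 of the 10 genes, IKZF1, IKZF3, ZNF692, ZMYM2 and DTWD1, against 34.5% of all genes. The median log2 fold change of the 10 was 0.12, beside -0.002 over all genes tested.

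**Figure D1:**
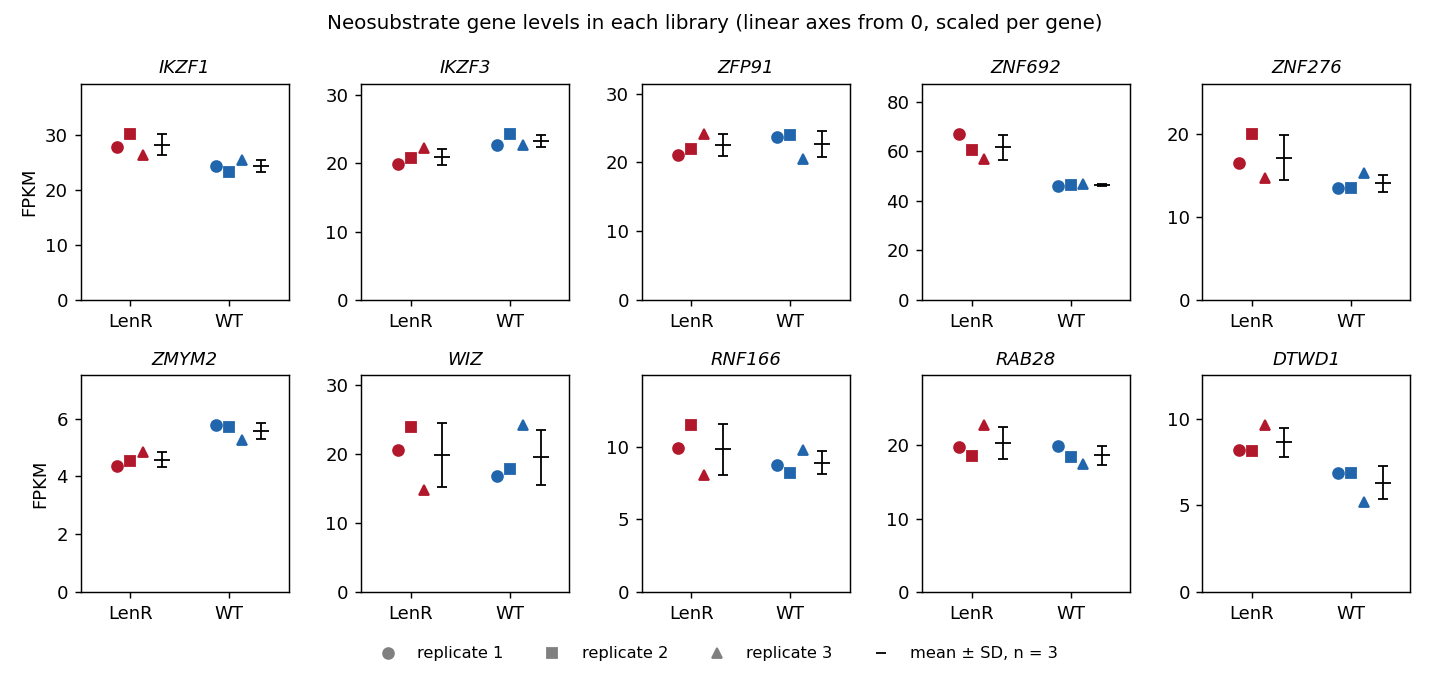
FPKM (y axis, linear and starting at 0) of the 10 neosubstrate genes in each LenR and WT library. Points are libraries, marker shapes are replicate numbers, and bars show the mean ± SD of 3. ZNF692 and DTWD1 lie higher in all 3 LenR libraries than in any WT library, as does IKZF1 by less, ZMYM2 and IKZF3 lie lower, and WIZ spreads over the same range in both groups.

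In some neosubstrates the sequences that lenalidomide-bound cereblon contacts are short zinc fingers of the C2H2 kind. They are shown for the 5 neosubstrates whose drug-dependent finger is well established, because the finger is where these proteins, of which IKZF1 and IKZF3 are paralogs, meet the drug-bound ligase. Each line gives the 63 bases of the coding strand from the codon of the first cysteine to that of the last histidine, each within 1 coding exon, from GENCODE 29 transcripts on GRCh38. Capitals mark the codons of the first cysteine, and of the second cysteine with the glycine after it, the turn that meets cereblon. The fingers lie at chr7:50382557-50382619 (plus strand, IKZF1), chr17:39791504-39791566 (minus, IKZF3), chr11:58617197-58617259 (plus, ZFP91), chr1:248850453-248850515 (minus, ZNF692) and chr16:89737977-89738039 (plus, ZNF276).
IKZF1 finger 2: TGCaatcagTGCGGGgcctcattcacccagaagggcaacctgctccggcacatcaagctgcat
IKZF3 finger 2: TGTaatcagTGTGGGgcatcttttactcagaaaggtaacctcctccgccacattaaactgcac
ZFP91 finger 4: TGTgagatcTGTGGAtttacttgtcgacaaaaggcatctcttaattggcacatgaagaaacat
ZNF692 finger 4: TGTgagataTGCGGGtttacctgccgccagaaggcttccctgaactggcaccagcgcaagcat
ZNF276 finger 4: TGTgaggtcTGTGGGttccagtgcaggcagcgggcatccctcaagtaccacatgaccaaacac

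The fingers of IKZF1 and IKZF3 were identical in 50 of 63 bases, and all 21 codons encoded the same residue. Those of ZFP91 and ZNF692 had 46 bases and 19 residues in common, and the finger of ZNF276 had 15 residues in common with ZFP91 and 14 with ZNF692. Between IKZF1 and the fingers of ZFP91, ZNF692 and ZNF276 only 9, 8 and 7 of 21 residues were the same. The capitals lie at the same place in all 5 because the fingers were searched for by that pattern, which also requires the histidines. The residues set by the search are among those counted as the same. The same turn, a cysteine, any pair of residues, a cysteine and a glycine within a C2H2 finger, was found 7 times in WIZ and once in RNF166. No such finger was found in ZMYM2, RAB28 or DTWD1. ZMYM2 carries zinc fingers of another kind (MYM), RAB28 is a small GTPase and DTWD1 is a tRNA-modifying enzyme.

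IKZF1 encodes Ikaros and IKZF3 encodes Aiolos, lymphoid transcription factors that sustain IRF4 and MYC in myeloma cells. IKZF1 (chr7:50304068-50405101, plus strand) had 27.8, 30.2 and 26.4 FPKM in LenR replicates 1 to 3, against 24.3, 23.2 and 25.4 FPKM in the WT replicates. Every LenR library lay above every WT library, with LenR replicate 3 and WT replicate 3 nearest to each other. The log2 fold change was 0.20 (SE 0.0739, 95% interval 0.03 to 0.38), with an adjusted p of 0.112 by limma. IKZF3 (chr17:39757715-39864188, minus strand) had 19.9, 20.7 and 22.2 FPKM in LenR and 22.7, 24.3 and 22.7 FPKM in WT libraries. All LenR values were the lower ones here, with LenR replicate 3 close to the WT range, and the log2 fold change was -0.15 (SE 0.0693, interval -0.31 to 0.01, adjusted p = 0.214 by limma).

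Neither Ikaros gene passed the adjusted test, and their estimates had opposite signs. The IKZF1 level divided by that of IKZF3 in the same library was 1.40, 1.46 and 1.19 in LenR replicates 1 to 3, against 1.07, 0.96 and 1.12 in the WT replicates. This ratio was looked at after the 2 genes' values had been seen and is a description without a test. All 3 LenR ratios lay above all 3 WT ratios, with LenR replicate 3 nearest to the WT libraries. Across the 22 alternative settings the fold change of IKZF1 stayed between 0.15 and 0.25 and that of IKZF3 between -0.19 and -0.11. IKZF1 passed under 1 of them, a model with a term for LenR replicate 2 and WT replicate 3 (adjusted p = 0.0192, in a range up to 0.373).

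By the root mean square difference of centred log2(FPKM + 1) over the 6 libraries, among the 8307 genes that averaged 5 FPKM or more, the profiles most like that of IKZF1 were those of B4GALT1 (0.019), DLG3 (0.024) and ZNF398 (0.025). The closest to IKZF3 were GMPS (0.016), CWF19L2 (0.016) and LGALS8 (0.018). None of these 6 genes passed the adjusted test (adjusted p between 0.104 and 0.226 by limma). They are named for likeness of profile alone.

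The Ikaros family has 3 further members. IKZF2 (Helios) was almost silent, at 0.0869 ± 0.0207 FPKM in LenR and 0.196 ± 0.0272 FPKM in WT (SD, n = 3 each), and was below the level needed for the test. IKZF4 (Eos) averaged 1.43 FPKM in LenR and 1.6 FPKM in WT (log2 fold change -0.10, adjusted p = 0.525 by limma). IKZF5 (Pegasus) had 5.96, 5.77 and 6.59 FPKM in LenR and 5.10, 5.62 and 4.81 FPKM in WT libraries, groups that did not overlap (0.20, adjusted p = 0.129). It passed under 2 alternatives, removal of the GC trend (0.24, adjusted p = 0.0166 by limma) and the term for LenR replicate 2 and WT replicate 3 (0.0489). Under the others its adjusted p reached 0.35. Of the 4 family members tested, 0 passed in the main limma fit or by voom, where 1756 of 11276 genes did. At an unadjusted p under 0.05, 2 were higher, and the median log2 fold change was 0.05. Over all genes tested, 15.1% passed by limma and 28.7% had an unadjusted p under 0.05, in either direction.

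ZFP91, ZNF692 and ZNF276 carry the related fingers shown above, and only ZNF692 passed. ZNF692 (chr1:248850006-248859144, minus strand), a zinc finger transcription factor also known as AREBP, had 67.2, 60.5 and 57.1 FPKM in LenR libraries, against 46.1, 46.3 and 46.7 FPKM in WT libraries. The WT libraries were almost identical and the LenR libraries more spread, with the lowest of them well above WT. The mean was 61.6 ± 5.09 FPKM in LenR and 46.4 ± 0.289 FPKM in WT (SD, n = 3 each), which is 1.33-fold. The log2 fold change was 0.40 (SE 0.077, interval 0.22 to 0.58), with an adjusted p of 0.0111 by limma. It was 0.42 with an adjusted p of 0.0251 without LenR replicate 2 and WT replicate 3. The adjusted p exceeded the threshold when WT replicate 1 was left out (0.0582), when WT replicate 2 was left out (0.0553), and when the 2 were averaged into 1 sample (fold change 0.40, adjusted p = 0.0558), while the fold change remained between 0.34 and 0.45 whichever library was left out.

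ZFP91 (chr11:58579111-58621042, plus strand), a zinc finger protein and ubiquitin ligase that acts on the kinase NIK in noncanonical NF-kB signalling, had 21.1, 22.0 and 24.2 FPKM in LenR libraries and 23.7, 24.0 and 20.5 FPKM in WT libraries. The groups overlapped fully, and the log2 fold change was -0.01 (interval -0.21 to 0.18, adjusted p = 0.935 by limma). The gene overlaps the read-through locus ZFP91-CNTF on the same strand, whose own level was not analysed here. ZNF276 (chr16:89720400-89740903, plus strand) had 16.6, 20.1 and 14.7 FPKM in LenR libraries and 13.5, 13.5 and 15.3 FPKM in WT libraries. LenR replicate 3 lay inside the WT range, and the log2 fold change was 0.26 (SE 0.112, interval 0.00 to 0.52, adjusted p = 0.173 by limma). It passed under 1 setting, the term for LenR replicate 2 and WT replicate 3 (adjusted p = 0.0215). ZNF276 overlaps FANCA by 3355 bp and VPS9D1 by 587 bp, both on the opposite strand, and without a stated strand setting their reads cannot be told apart. FANCA averaged 12.7 FPKM in LenR and 11.3 FPKM in WT (0.15, adjusted p = 0.313), and VPS9D1 averaged 5.34 and 4.23 FPKM in LenR and WT (0.28, adjusted p = 0.117).

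ZMYM2 and WIZ are nuclear zinc finger proteins of repressive chromatin complexes. ZMYM2 (chr13:19958670-20091829, plus strand), which joins the LSD1-CoREST-HDAC complex, had 4.35, 4.55 and 4.85 FPKM in LenR libraries, against 5.77, 5.72 and 5.25 FPKM in WT libraries. All LenR values were below all WT values, with LenR replicate 3 and WT replicate 3 nearest to each other. The means were 4.58 ± 0.255 FPKM in LenR and 5.58 ± 0.288 FPKM in WT (SD, n = 3 each), and the log2 fold change of -0.24 (SE 0.0683, interval -0.39 to -0.08) just missed the threshold, with an adjusted p of 0.0563 by limma. The side of the threshold depended on the setting. With the same sign, ZMYM2 passed with voom on the reads (-0.29, adjusted p = 0.0308), rescaling by median ratio (0.0481), quantile normalization (0.0385), removal of each library's GC trend (-0.20, adjusted p = 0.0314) and the term for LenR replicate 2 and WT replicate 3 (0.0263).

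WIZ (chr19:15419980-15449951, minus strand), a partner of the histone methyltransferases GLP (EHMT1) and G9a (EHMT2), had 20.5, 23.9 and 14.8 FPKM in LenR libraries and 16.8, 17.8 and 24.1 FPKM in WT libraries. Its libraries of 1 group varied more than those of any other neosubstrate gene, with a coefficient of variation of 23.2% in LenR and 20.3% in WT. The log2 fold change was 0.01 with a wide interval of -0.42 to 0.44 (adjusted p = 0.982 by limma), so a change smaller than these bounds was not detectable. Its sign turned without LenR replicate 1 (-0.03), LenR replicate 2 (-0.14), WT replicate 1 (-0.09) or WT replicate 2 (-0.05).

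RNF166, RAB28 and DTWD1 are the neosubstrates outside transcription. RNF166 (chr16:88696495-88706421, minus strand), a RING-type ubiquitin ligase, had 9.96, 11.5 and 8.06 FPKM in LenR libraries and 8.79, 8.19 and 9.79 FPKM in WT libraries. LenR replicate 3 was the lowest of all 6, and the log2 fold change was 0.12 (interval -0.16 to 0.40, adjusted p = 0.588 by limma). RAB28 (chr4:13361354-13484365, minus strand), a small GTPase of the Rab family linked to cilia, had 19.7, 18.5 and 22.7 FPKM in LenR libraries and 19.9, 18.4 and 17.4 FPKM in WT libraries. Only LenR replicate 3 lay above the WT range, and the log2 fold change was 0.12 (interval -0.09 to 0.33, adjusted p = 0.461 by limma).

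DTWD1 (chr15:49620980-49656232, plus strand) had 8.19, 8.17 and 9.63 FPKM in LenR libraries, against 6.9, 6.87 and 5.2 FPKM in WT libraries. The groups did not overlap, and WT replicate 3 lay apart from the other WT libraries on the low side. The mean was 8.66 ± 0.836 FPKM in LenR and 6.32 ± 0.972 FPKM in WT (SD, n = 3 each), which is 1.37-fold. The log2 fold change was 0.41 (SE 0.112, interval 0.15 to 0.67), with an adjusted p of 0.048 by limma, close to the threshold. The call did not outlast the loss of any 1 library, with adjusted p-values between 0.0615 (without LenR replicate 2) and 0.112 (without LenR replicate 1) and fold changes of 0.29 (without WT replicate 3) to 0.47. Without LenR replicate 2 and WT replicate 3 together it was 0.33 (adjusted p = 0.056), and with WT replicates 1 and 2 averaged 0.46 (adjusted p = 0.07). The value in WT replicate 3 rested on 209 reads, the fewest of any neosubstrate gene (95% exact Poisson interval 182 to 239), and the most were 4029 for IKZF3 in WT replicate 2 (3906 to 4155). Such intervals cover counting error only.

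**Figure D2:**
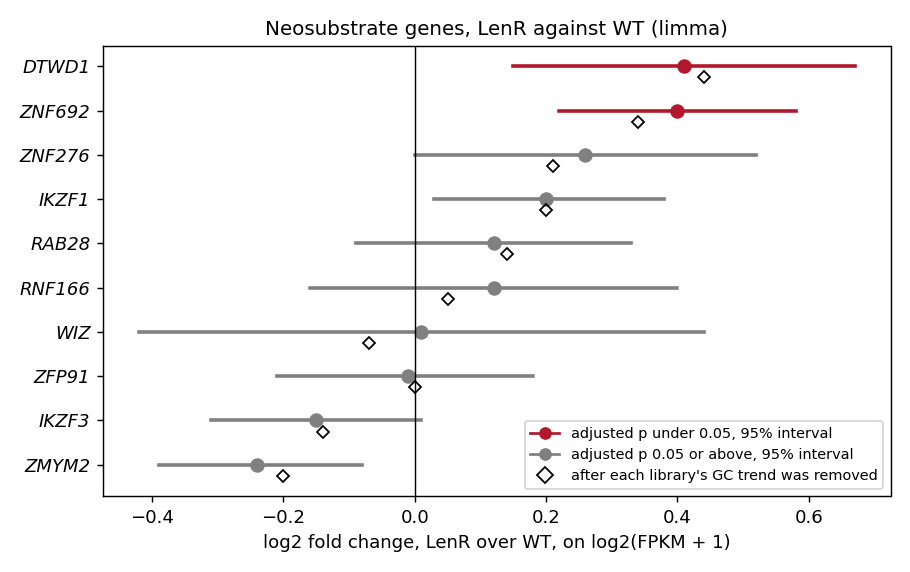
Log2 fold change of each neosubstrate gene, LenR over WT, on log2(FPKM + 1) (x axis, n = 3 libraries each). Circles with bars are limma estimates with 95% intervals, red where the adjusted p was under 0.05, and diamonds are the estimates after each library's GC trend was removed. DTWD1 (0.41) and ZNF692 (0.40) are at the top, ZMYM2 (-0.24) is at the bottom, and the diamond of WIZ lies on the other side of 0 from its circle.

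Differences between some libraries of the same group went with the GC content of these genes. The libraries set against each other here lay on opposite sides of the second component and already differed in GC trend over all genes. The signs below follow that general shift and are no separate result. LenR replicate 1, in which ZNF692 was highest (67.2 FPKM), is not part of these differences. The quartiles over 11023 genes with a position were 42.9% and 56.5% GC. WIZ, RNF166, ZNF692 and ZNF276, at 59.9% GC and above, lay above the upper quartile, and for all 4 the log2 difference of LenR replicate 2 over LenR replicate 3 was above 0 (0.08 to 0.65). So was WT replicate 3 over the mean of WT replicates 1 and 2 (0.01 to 0.46). ZMYM2, RAB28 and DTWD1, from 37.4% to 42.2% GC, were below the lower quartile, and the same differences were -0.28 to -0.08 and -0.35 to -0.11. IKZF1, IKZF3 and ZFP91 lay between the quartiles, with differences of both signs.

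The libraries that stood apart on the second component thus belonged to different groups. With each library's trend over GC content removed, the fold changes were 0.34 for ZNF692 (adjusted p = 0.00729 by limma), 0.44 for DTWD1 (0.00321) and 0.20 for IKZF1 (0.057). The other values were -0.14 for IKZF3 (0.0734), 0.21 for ZNF276 (0.0908), 0.14 for RAB28 (0.145) and 0.05 for RNF166 (0.713). Thus 3 of 10 passed, ZNF692, DTWD1 and ZMYM2, among 2567 of 11023 genes. WIZ changed sign, to -0.07 (adjusted p = 0.739). ZNF692 differed least between libraries of the same group among the 4 GC-rich genes.

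**Figure D3:**
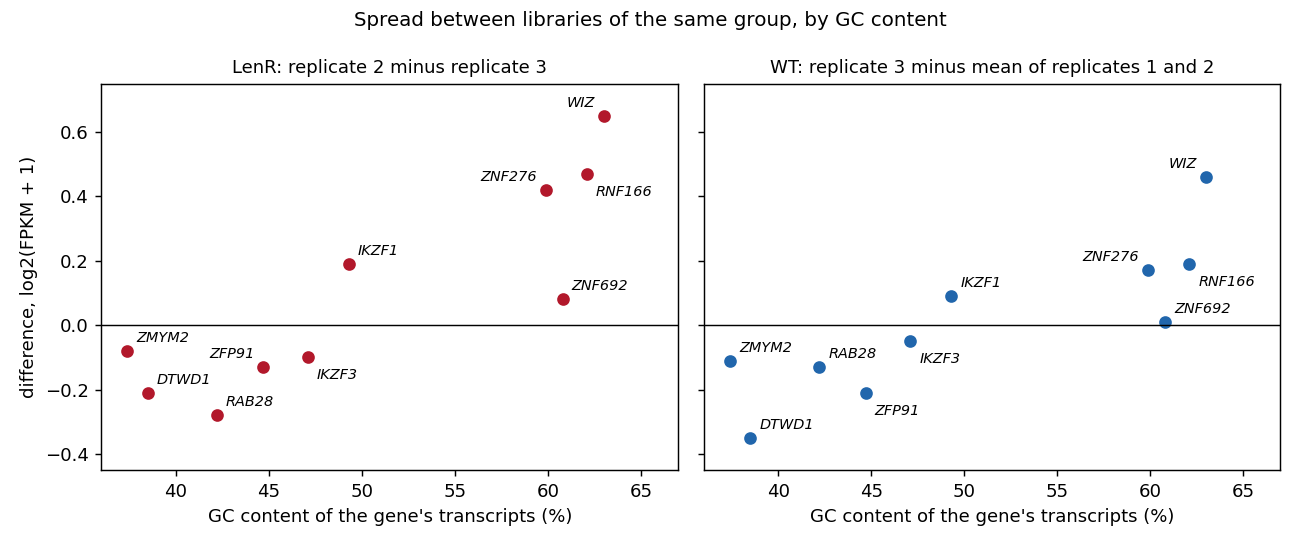
Log2 difference between libraries of the same group (y axis, on log2(FPKM + 1)) against the GC content of each gene's transcripts (x axis, %). The left panel shows LenR replicate 2 minus replicate 3 and the right panel WT replicate 3 minus the mean of replicates 1 and 2. Each point is 1 neosubstrate gene. The GC-rich WIZ, RNF166 and ZNF276 lie highest in the left panel (0.42 to 0.65), and the GC-poor RAB28 and DTWD1 lie lowest there (-0.28 and -0.21).

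FPKM is per gene length, so the levels of the 10 genes could be set in order. ZNF692 was the highest in both groups and exceeded 87.1% of all genes tested, while ZMYM2 was the lowest and exceeded 26.6%. The mean of the highest was 13.4 times that of the lowest in LenR and 8.32 times in WT. In LenR, IKZF1 came second, apart from the rest. ZFP91, IKZF3, RAB28, WIZ and ZNF276 followed at 22.5 down to 17.2 FPKM, each overlapping its neighbour in the order. RNF166 and DTWD1 then overlapped each other at 9.85 and 8.66 FPKM. In WT, IKZF1, IKZF3, ZFP91, WIZ and RAB28 formed a run of overlapping neighbours from 24.3 to 18.6 FPKM, and ZNF276 (14.1 FPKM) and RNF166 (8.92 FPKM) stood apart from their neighbours. DTWD1 (6.32 FPKM) and ZMYM2 (5.58 FPKM) overlapped. No place in either order changed when libraries were rescaled to the same FPKM total. That rescaling multiplies all genes of a library by the same factor, so it cannot change the order within a library. Whether the order depends on the GC trend was not tested.

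The genes around each neosubstrate gene were described as well, because stretches of some chromosomes differed between the groups. Among tested genes within 5 Mb, the median log2 fold change lay between -0.08 (8 genes around IKZF1) and 0.04 (18 genes around RAB28) for all 10. Around ZNF692 it was 0.02 over 19 genes, of which 12 were above and 7 below 0. Around DTWD1 it was -0.05 over 36 genes, 4 higher and 5 lower past the threshold, and around ZMYM2 it was -0.03 over 20 genes, of which 9 were above and 11 below 0. The fold changes of these 3 genes were further from 0 than the median of their neighbourhood, from which they were left out. The 3 were picked for their fold changes, so this is a description only. The part of the neighbourhood in their results was not tested.

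**Figure D4:**
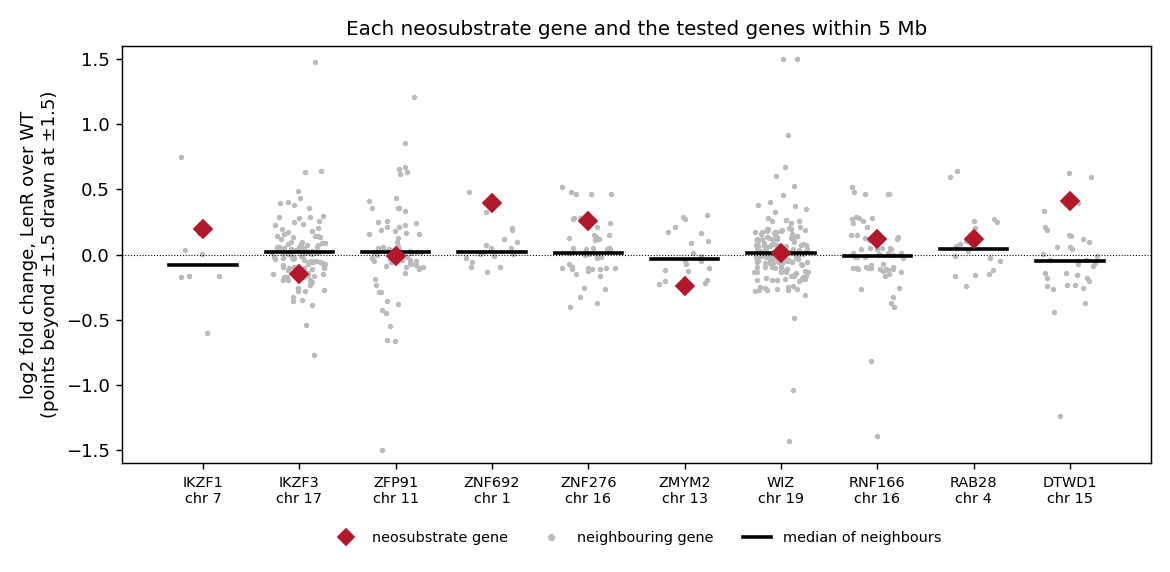
Log2 fold change, LenR over WT, of each neosubstrate gene (diamond) and of the tested genes within 5 Mb on the same chromosome (grey points, y axis limited to ±1.5), with the median of the neighbours as a bar. All 10 medians lie between -0.08 and 0.04, while ZNF692 and DTWD1 lie near 0.4.

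Other reported neosubstrates of cereblon binders gave a mixed picture. Of 22 tested, 2 were higher and 3 lower in LenR past the threshold, with a median log2 fold change of -0.01. These counts stand beside 15.1% of all genes tested that passed in either direction, 8.57% higher and 6.57% lower in LenR. CSNK1A1, the casein kinase whose loss matters in del(5q) myelodysplastic syndrome, had 33.1, 33.1 and 33.4 FPKM in LenR libraries, against 60.8, 58.8 and 56.9 FPKM in WT libraries, and fell by 0.81 on the log2 scale (adjusted p = 0.000195 by limma). Its neighbours were lower too, with a median of -0.61 over 32 genes within 5 Mb, and the part of the neighbourhood in the result was not tested. GSPT2, a translation termination factor, averaged 2.50 ± 0.282 FPKM in LenR and 7.86 ± 0.582 FPKM in WT (SD, n = 3 each; -1.34, adjusted p = 9.42e-05), with a neighbourhood median of 0.02. Its close copy GSPT1 averaged 34.7 FPKM in LenR and 34.3 FPKM in WT (0.02, adjusted p = 0.909), and whether reads were shared between the copies was not tested.

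ZNF316, a C2H2 zinc finger gene, averaged 5.43 FPKM in LenR and 8.32 FPKM in WT (-0.54, adjusted p = 0.00764 by limma), and all 43 tested neighbours had fold changes below 0 (median -0.72). The calls of CSNK1A1, GSPT2 and ZNF316 remained under all 22 alternative settings. The remaining pair, named after their values were seen, were low zinc finger genes that were higher in LenR. ZNF517 averaged 2.90 FPKM in LenR and 2.02 FPKM in WT (0.37, adjusted p = 0.0137), in a neighbourhood with a median of 0.49, and did not pass without WT replicate 1 (0.0582) or LenR replicate 1 (0.0621). With the GC trend removed it was 0.28 (adjusted p = 0.054). ZNF629 averaged 2.85 FPKM in LenR and 2.16 FPKM in WT (0.28, adjusted p = 0.0286), and missed the threshold when WT replicate 1 (0.102) or 2 (0.117) was left out, and likewise with LenR replicate 1 (0.101) or 2 (0.0746).

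No gene of the cereblon ligase passed the test. Cereblon (CRBN) had 13.5, 13.4 and 14.1 FPKM in LenR libraries and 14.7, 13.2 and 13.3 FPKM in WT libraries (-0.01, adjusted p = 0.947 by limma). Of its 5 subunit genes, CRBN, DDB1, CUL4A, CUL4B and RBX1, 0 passed by limma or voom and 0 had an unadjusted p under 0.05, with a median of -0.01. The shares over all genes tested were 15.1% passing by limma and 28.7% with an unadjusted p under 0.05. By voom 1756 of 11276 genes passed.

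Genes reported to act under or with Ikaros and Aiolos in myeloma were higher in LenR where they passed. Of 16 tested, 5 were higher and 0 lower, beside 8.57% higher and 6.57% lower over all genes tested. At an unadjusted p under 0.05 and by voom 0 were lower as well. SPIB, named after its values were seen, was listed too but was below the level needed for the test. It averaged 0.226 FPKM in LenR and 0.646 FPKM in WT and was lower in every LenR library. The list does not separate genes that Ikaros and Aiolos raise from genes they lower, so a shared direction is no measure of their activity. Of the 10 plasma cell markers 5 passed, all higher in LenR, of which IRF4, XBP1, PRDM1 and CD38 are also on this list and SDC1 is not. The part of these markers in the result was not tested. The list's median was 0.07, with 8 members above and 8 below 0. MYC, the growth-promoting transcription factor, had 369, 442 and 336 FPKM in LenR libraries, against 238, 233 and 281 FPKM in WT libraries (log2 fold change 0.60, adjusted p = 0.0157 by limma). CD38, the surface enzyme that myeloma antibodies bind, had 37.5, 38 and 36.4 FPKM in LenR and 24.5, 24.8 and 23.5 FPKM in WT libraries (0.60, adjusted p = 0.000585). PRDM1, the plasma cell factor Blimp-1, had 118, 139 and 116 FPKM in LenR and 83.3, 84.2 and 97.3 FPKM in WT libraries (0.49, adjusted p = 0.0155). For all 3 genes the lowest LenR library lay above the highest WT library. Within 5 Mb of MYC the median log2 fold change was 0.13 over 27 genes, of which 20 were above 0. Past the threshold, 9 of these neighbours were higher and 1 was lower in LenR. The medians around CD38, PRDM1, IRF4 and XBP1 were 0.08, -0.04, -0.09 and -0.03. The part of the neighbourhood in these genes' results was not tested.

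IRF4, the transcription factor on which myeloma cells depend, had 211, 233 and 220 FPKM in LenR libraries, against 177, 172 and 178 FPKM in WT libraries (0.33, adjusted p = 0.0217 by limma). XBP1, a factor of the secretory programme named after its values were seen, averaged 619 FPKM in LenR and 483 FPKM in WT (0.36, adjusted p = 0.0203). POU2AF1 and MEF2C, picked in the same way, had lower means in LenR, at -0.10 (adjusted p = 0.367) and -0.12 (adjusted p = 0.267). Among these 5 called genes CD38 alone passed under every alternative. Without WT replicate 1 the adjusted p was 0.0722 for MYC, 0.0769 for PRDM1, 0.106 for IRF4 and 0.121 for XBP1, and without WT replicate 2 it was 0.0709, 0.0723, 0.118 and 0.101 for the same genes in that order. MYC also missed the threshold without LenR replicate 1 (0.0603), and XBP1 without WT replicate 3 (0.0509) or LenR replicate 1 (0.0674).

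The NuRD complex, a nucleosome-remodelling corepressor that Ikaros proteins bind, had 2 of 13 tested genes lower in LenR and 0 higher by limma. The counts by voom were the same. In either direction, 15.1% of all genes passed by limma and 1756 of 11276 by voom. The median of the complex was -0.07. CHD3, one of its alternative remodelling ATPases, had 1.74, 1.48 and 1.19 FPKM in LenR libraries, against 3.89, 3.96 and 4.36 FPKM in WT libraries (-1.04, adjusted p = 0.000375). CHD4, the ATPase that was far more abundant here, averaged 70.0 FPKM in LenR and 71.6 FPKM in WT (-0.03, adjusted p = 0.834). HDAC1, a histone deacetylase of both the NuRD and the CoREST complex, averaged 71.5 ± 1.73 FPKM in LenR and 86.0 ± 1.81 FPKM in WT (SD, n = 3 each; -0.26, adjusted p = 0.0309). Its call ended in 5 of the 6 fits with 1 library left out. Leaving out WT replicate 1 gave an adjusted p of 0.153, leaving out WT replicate 2 gave 0.147, and leaving out LenR replicates 1, 2 and 3 in turn gave 0.0733, 0.0721 and 0.0545.

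Around ZMYM2, HDAC1 was the 1 gene that passed among 14 tested partners and relatives, whose median was -0.07. By voom 2 passed, both lower, beside 1756 of 11276 genes in either direction. At an unadjusted p under 0.05 by limma 5 were lower and 1 was higher in LenR. Over all genes tested, 15.1% passed by limma and 28.7% had an unadjusted p under 0.05, in either direction. No ZMYM paralog passed by limma: the log2 fold changes were -0.28 for ZMYM6 (adjusted p = 0.0515), -0.36 for ZMYM1 (0.0955), -0.19 for ZMYM4 (0.107), -0.07 for ZMYM5 (0.684) and 0.15 for ZMYM3 (0.407). The CoREST-complex genes KDM1A, which encodes LSD1, and PHF21A had fold changes of -0.14 (adjusted p = 0.193) and 0.22 (adjusted p = 0.115). KDM1A, PHF21A and the paralogs were picked after their values were seen.

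Among the partners of WIZ, EHMT1 averaged 18.9 FPKM in LenR and 19.5 FPKM in WT (-0.04, adjusted p = 0.857 by limma), and EHMT2 was below the level needed for the test (0.299 ± 0.212 FPKM in LenR, 0.213 ± 0.225 FPKM in WT; SD, n = 3 each). While 15.1% of all genes tested passed in either direction, of 5 partners tested 1 was lower. This was CBX3, the heterochromatin protein HP1-gamma, with 63.1, 52.4 and 73.5 FPKM in LenR libraries against 116, 117 and 89.2 FPKM in WT libraries (-0.76, adjusted p = 0.0119). All 34 of its tested neighbours within 5 Mb had fold changes below 0 (median -0.54), and it missed the threshold without LenR replicate 1 (0.0577) and narrowly without WT replicate 1 (0.05 after rounding).

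In the noncanonical NF-kB list around ZFP91, 1 of 8 genes passed, beside 15.1% of all genes tested in either direction. BIRC3, which encodes the ubiquitin ligase cIAP2, averaged 11.3 ± 1.1 FPKM in LenR and 15.8 ± 1.39 FPKM in WT (SD, n = 3 each; -0.45, adjusted p = 0.0144 by limma). Leaving out WT replicate 1 (0.0652), WT replicate 2 (0.0616) or LenR replicate 1 (0.0619) ended this call. MAP3K14, the NIK kinase itself, averaged 16.6 FPKM in LenR and 16.4 FPKM in WT, a log2 fold change of 0.01.

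Of 3 tested relatives of RNF166, RING-type ubiquitin ligases like it, 2 were lower in LenR, beside 6.57% of all genes tested. RNF138 had 6.58, 6.53 and 6.49 FPKM in LenR libraries, against 14.1, 14.1 and 11.9 FPKM in WT libraries (-0.93, adjusted p = 0.000255 by limma). RNF125 averaged 3.86 ± 0.198 FPKM in LenR and 6.51 ± 0.166 FPKM in WT (SD, n = 3 each; -0.63, adjusted p = 0.000559), and RNF114, the other relative tested, had a fold change of -0.01. RNF125 and RNF138 lie side by side on chromosome 18, where the median over 21 genes within 5 Mb was -0.52 and 16 of the 21 were below 0. The part of the neighbourhood in these results was not tested. The 10 genes listed for their relation to RAB28 gave 0 calls by limma or voom and 0 with an unadjusted p under 0.05 (median -0.01). By limma these shares were 15.1% and 28.7% over all genes tested, and by voom 1756 of 11276 genes passed. Of the relatives of DTWD1, the rRNA-modifying enzyme gene TSR3 averaged 44.3 FPKM in LenR and 41.6 FPKM in WT (0.09, adjusted p = 0.723), and DTWD2 was below the level needed for the test (0.899 FPKM in LenR, 0.795 FPKM in WT).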

How the data were processed

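Total RNA of 6 MM.1S cultures (3 LenR, 3 WT) was sequenced from libraries made with a universal kit, per the labels. A single table, deposited by the authors, holds FPKM values of 12760 genes, whose 6 columns the sample descriptions name. Per the submitters' processing notes, edgeR 3.40.2, featureCounts 2.0.3, HISAT2 2.2.1, FastQC 0.11.9 and the build hg38 were used, with no role stated; the annotation, the strand setting and the filter behind the table were not given in the sources used here. Every gene's values were multiples of a step, which gave whole reads for all 12760 genes (within 0.03 of a read, 119 genes after multiplication by a common factor).

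A linear model of group alone was fitted to log2(FPKM + 1) without further scaling in limma 3.58.1 under R 4.3.3, for the 11276 genes that averaged 1 FPKM or more (1484 were left out). Its empirical Bayes step used a trend and gave 3.75 prior degrees of freedom. Tests were two-sided with Benjamini-Hochberg adjustment over all genes tested; an exact permutation of 3 against 3 libraries cannot go below 0.1. The procedure was tested on simulated data. Positions, GC content (12412 names, 97.3%), overlaps and finger sequences came from GENCODE 29 on GRCh38, matched by symbol. Figures were made in matplotlib 3.10.9 under Python 3.11.15.

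The 10 genes, the 11 lists, the rule for named genes and the alternatives were chosen with earlier results of these data known. Named were the 10 genes, up to 3 called genes per list with the strongest changes, and the 3 profiles most like IKZF1 and IKZF3. So were CSNK1A1, CRBN, IRF4, MYC, IKZF2, IKZF5, GSPT1, EHMT1, EHMT2 and CHD4, and genes overlapping a neosubstrate gene. Any other was picked with its values known. This is not marked in the text for IKZF4, MAP3K14, RNF114, TSR3, DTWD2, SDC1, DDB1, CUL4A, CUL4B and RBX1. The 22 alternatives changed the block, pseudocount, filter, scaling, empirical Bayes, unit, libraries and GC content. Voom on the whole reads used library sizes scaled by median ratio. T and NK, myeloid, and epithelial and stromal markers were also summed: 3 of 8, 1 of 6 and 2 of 6 were in the table, at 3.95 to 4.71, 17.3 to 19.3 and 0.6 to 0.849 FPKM in LenR, against 4.5 to 4.85, 12.9 to 16.6 and 0.465 to 0.637 FPKM in WT libraries. The 1 B cell marker in the table was at 12.6 to 14.6 FPKM in LenR and 10.2 to 12.1 FPKM in WT libraries. No sample or column was left out.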

Additional observations from a re-analysis of the deposited data

How the results depend on the processing

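Under the 22 alternatives, the directions of IKZF1, IKZF3, ZNF692, ZNF276, ZMYM2, RNF166, RAB28 and DTWD1 did not turn. Genes called numbered 1707, against 907 with the replicate block, 1075 at a mean of at least 5 FPKM, 1052 with WT replicates 1 and 2 averaged, 3163 with the term for LenR replicate 2 and WT replicate 3, 2567 with the GC trend removed and 1007 to 1562 with 1 library left out (1007, 1060 and 1070 without WT replicate 1, WT replicate 2 and LenR replicate 1). Neosubstrate genes called (2) came to 0 with the block or the averaging, 1 at the stricter filter, without the empirical Bayes trend, or without LenR replicate 2 and WT replicate 3 together, 5 with the term, and 0 (without WT replicate 1 or 2) to 1 with 1 library left out. ZNF692 missed the threshold with the block (0.40, adjusted p = 0.0847) and the averaging (0.40); it was 0.34 to 0.45 with 1 library left out. DTWD1 missed it with the block (0.41, 0.137), the stricter filter (0.41, 0.0549), quantile normalization (0.39, 0.0504), no trend (0.41, 0.0507), without both libraries (0.33) and the averaging (0.46); leaving out 1 gave 0.29 to 0.47. ZMYM2 gained it with median ratio (-0.24), quantile normalization (-0.26), voom (-0.29), the term (-0.24) and GC removal (-0.20). Under every other alternative ZMYM2 missed it, at an adjusted p of up to 0.23 by limma (the block). With the term, IKZF1 (0.20) and ZNF276 (0.26) passed as well. ZFP91 turned sign with the averaging (0.02) and was -0.08 to 0.03 with 1 library left out; WIZ turned with the averaging, GC removal, and GC removal with the block (-0.07 each), and was -0.14 to 0.19. Called list genes (16, neosubstrate genes of the 10 apart) came to 8 with the block, 9 with the averaging, 10 with GC removal and the block, and 7 to 17 with 1 library left out (7, 9 and 9 without WT replicate 1, WT replicate 2 and LenR replicate 1). Medians of neighbours moved within 1 Mb for IKZF1 (-0.16, 1 gene), ZFP91 (-0.05), ZNF692 (0.12, 3 genes) and RAB28 (-0.05, 1 gene), and within 10 Mb for IKZF1 (-0.02). The cause of these shifts was not tested, other than that leaving out or averaging libraries leaves fewer samples and a filter fewer genes. Same-numbered libraries did not deviate together: their deviations correlated at 0.024, -0.557 and -0.683. Each LenR replicate correlated best with another number (0.106, 0.686 and 0.526). Whether same-numbered cultures were handled as pairs is not given in the sources used here. With 3 libraries a group, the spread between cultures limits the precision; counting error was at most 6.92% for any of the 10 genes (DTWD1 in WT replicate 3).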
